A study of Homo sapiens with 9 samples.

Results

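The response of MM.1S cells to the lower of the tested doses of epigallocatechin gallate (EGCG), 40 µM for 24 h, is described here across the whole transcriptome. Most room is given to genes in none of the stress lists defined below. MM.1S is an established human multiple myeloma cell line, a tumour of antibody-secreting plasma cells, and EGCG is the main catechin of green tea. The genes were chosen only by an expression filter over all libraries (filterByExpr of edgeR), which 15982 of the 60675 genes in the deposited table passed. The comparison set 3 libraries from cells given EGCG at 40 µM against 3 libraries from cells at 0 µM, called control below, and 3 libraries at 80 µM entered the same fit. All 9 libraries came from the same line, which carries its tumour genotype in every group, in RPMI medium with serum and antibiotics, and were taken after 24 h. The study asked by what mechanism EGCG drives these cells into apoptosis. The labels number the libraries of a group but do not say that they came from separate cultures, so the p-values measure only the spread between these libraries. A single line and a single time point were measured.

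EGCG is a polyphenol that oxidises in culture medium and gives off hydrogen peroxide, and it binds many proteins. A plasma cell carries a heavy load of secreted protein through its endoplasmic reticulum, and it answers strain there and shortage of amino acids with the transcription factor ATF4. Oxidants act through NRF2, DNA damage through p53, and growth signals at the membrane through short-lived immediate early genes. Genes of these pathways, with chaperone, apoptosis and metallothionein genes, are called the stress lists here (240 genes in 8 lists). A gene outside them is only absent from these lists, and it may still respond to stress, as NIBAN1 and DRAM1 below are known to.

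The 6 libraries compared held 13138486 to 16427343 counted reads, and 3 reads in 1 of the 9 libraries stood for 0.183 to 0.234 CPM, the unit of all levels below, which is the read count of a gene scaled to the library total with the trimmed mean of M values (TMM). Between 99.71% and 99.83% of the counts lay in the tested genes. The first principal component of these 6 libraries held 34.3% of the variance, and placed the controls between -37.2 and -18.8 and the treated libraries at 10.3, 44.8 and 25.7, with replicate 2 farthest out. Replicate 2 also held the most extreme of the treated values in 109 of 238 called rises and 81 of 130 called falls. The mitochondrial share of the counts was 7.60% to 8.51% in the controls and 8.47%, 11.5% and 9.72% at 40 µM in order of replicate. Plasma cell identity held in both groups: 15 of 18 plasma cell and myeloma markers were tested, their summed level was 15200 to 17700 CPM in the controls and 14000 to 14300 CPM at 40 µM, and none was at 0 in all libraries. T and NK cell markers summed to 9.82 CPM or less, with CD3D and NKG7 at 0, and stromal markers to 3.9 CPM or less, with COL1A2, LUM and POSTN at 0. Monocyte markers summed to 6.77 to 8.71 CPM in the controls and 6.91 to 16.3 CPM at 40 µM, with S100A8 at 0 and CD68 the highest.

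At 40 µM, 368 genes were called, 2.3% of those tested (edgeR quasi-likelihood test, Benjamini-Hochberg adjusted p under 0.05). Of these, 238 rose (1.49%) and 130 fell (0.813%). A change of 2-fold or more was found in 109 rises (0.682%) and 37 falls (0.232%). The median log2 fold change over all tested genes was 0.0147, so changes are read against a centre close to 0. For comparison, 5574 genes (34.9%) were called at 80 µM against control. Of the calls, 49 of the 238 rises and 10 of the 130 falls belonged to the stress lists, so 189 rises and 120 falls lay outside them. In bulk RNA, a small change in every cell and a large change in a part of the cells cannot be told apart.

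The count of calls rested on single libraries: without 40 µM replicate 3 there were 144, without control replicate 1 there were 136, and without 40 µM replicate 1 there were 469. Therefore the genes described first are the 70 outside the stress lists (49 rises, 21 falls) that were called in the main test and again in all 14 alternatives tried, which include leaving out each of the 9 libraries. The choice of these 70 was made after their values were seen, and such calls are named secure below. The median size of their change on the log2 scale was 1.54 for the rises, with a range of 0.86 to 4.83, and 1.02 for the falls, with a range of 0.78 to 2.15. Asking for a call in every alternative favours large changes, so these sizes partly reflect the choice. Over all called genes the medians were 0.97 for the rises and 0.78 for the falls. In the plot of fold change by level the 70 genes lie at all levels, from genes hardly read in the controls to the mitochondrial ribosomal RNA.

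**Figure D1:**
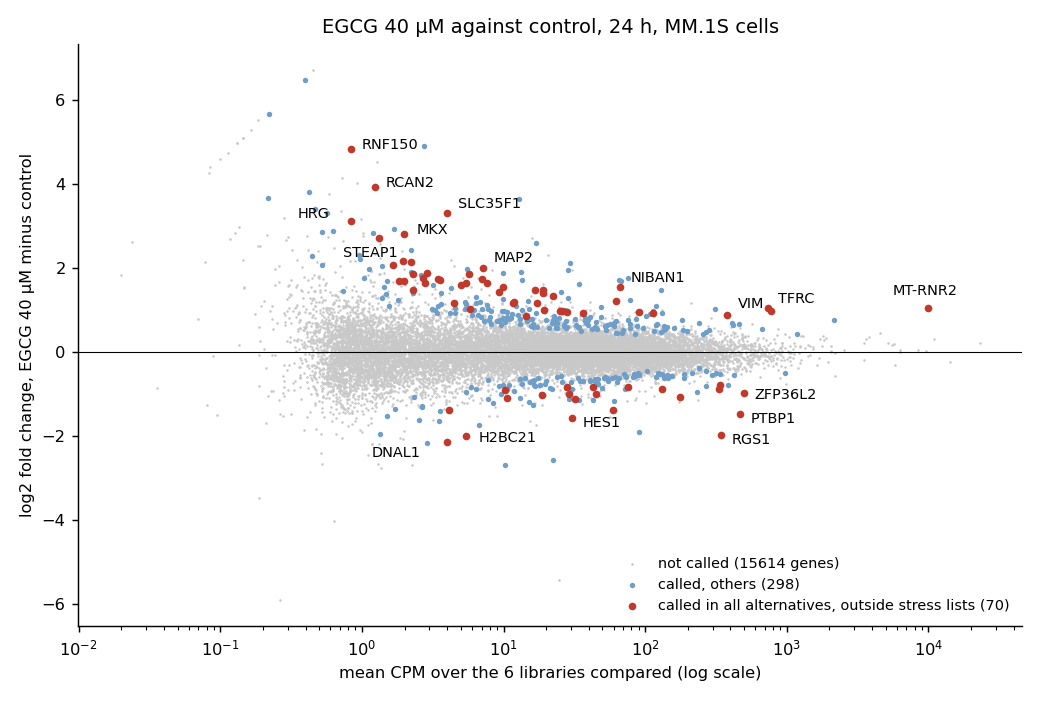
Log2 fold change at 40 µM (y axis) against mean CPM over the 6 libraries compared (x axis, log scale; 1 gene under 0.02 CPM is drawn there) for 15982 genes. Grey dots are genes not called, blue dots other called genes, and red dots the 70 genes called in all alternatives outside the stress lists; SLC35F1 and RCAN2 lie high on the left, MT-RNR2 far right, and PTBP1 and RGS1 low on the right.

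Membrane transport genes were among the largest rises. SLC35F1 (ENSG00000196376, chr6:117907526-118317676, plus strand, GRCh38) encodes a relative of nucleotide sugar carriers whose cargo is little known, and it was read at 0.472, 0.669 and 1.07 CPM in the 3 control libraries and 6.6, 7.63 and 7.51 CPM at 40 µM. Every treated library lay far above every control library. Its log2 fold change was 3.30 ± 0.23 (SE), adjusted p = 7.89e-05, and the mean at 80 µM was 24.9 CPM. SLCO2B1 and SLCO4C1 encode uptake carriers for organic anions such as steroid sulfates and drugs. SLCO2B1 went from 0.540, 1.12 and 0.459 CPM in the controls to 3.00, 3.10 and 3.50 CPM (log2 fold change of 2.17 ± 0.30 (SE), adjusted p = 0.00505). SLCO4C1 went from 0.742, 0.595 and 0.536 CPM to 2.02, 3.38 and 2.62 CPM (log2 fold change of 2.07 ± 0.28 (SE), adjusted p = 0.00434). Neither had overlapping groups, a separation seen in the higher direction in 12.9% of all tested genes and in the lower direction in 11.5%. Of the calls outside the stress lists, 188 of 189 rises and all 120 falls were separated in this way. Here and below, the separation describes the libraries and adds little to a call. Both stayed low in absolute reads, with 29 and 26 control reads in all. ABCB1, the drug efflux pump P-glycoprotein, rose from 1.08, 1.19 and 1.38 CPM to 3.73, 3.02 and 3.43 CPM (log2 fold change of 1.48 ± 0.20 (SE), adjusted p = 0.0044), and its mean at 80 µM was 8.78 CPM. So an export pump and 2 uptake carriers were among the rises.

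Few members of these families were called. Of 212 tested solute carriers, 5 rose and 2 fell (3.3% called against 2.3% of all genes), with a median log2 fold change of 0.03. SLC16A14, an orphan of the monocarboxylate carriers, was the only other solute carrier among the 70, and it rose from 20.9, 15.8 and 20.3 CPM to 38.4, 38.3 and 33.9 CPM (log2 fold change of 0.96 ± 0.15 (SE), adjusted p = 0.00908). In families chosen after the values were seen, 2 of 5 SLCO genes rose (40%), and of 27 ABC transporters 2 rose and 1 fell (11.1% called), where 2.3% of all tested genes were called. TRPM8, the cold and menthol gated cation channel, rose from 16.1, 17.6 and 19.1 CPM to 32.0, 37.1 and 34.6 CPM (log2 fold change of 0.98 ± 0.11 (SE), adjusted p = 0.00169), and reached a mean of 125 CPM at 80 µM. Ion channels of the channel list, which does not hold TRPM8, gave 3 rises and no fall among 64 tested (4.69% called against 2.3% of all genes). Those 3 were KCNS3, BEST1 and CLCN4, and none is secure: the call on KCNS3 or CLCN4 was lost without any 1 of the 9 libraries (up to adjusted p = 0.146 without control replicate 1 and adjusted p = 0.164 without control replicate 1), and that on BEST1 without 8 of the 9, all but 40 µM replicate 2 (up to adjusted p = 0.146 without control replicate 3). BEST1 also overlaps FTH1 on the opposite strand, and since no source used here states the strand setting of the counting, reads of the pair cannot be told apart.

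Rises among single genes of vesicles and lysosomes included SYTL1, RAB39B, LAMP3, DRAM1 and ATP6V0A1. SYTL1, which tethers secretory vesicles through RAB27, stood at 3.44, 3.27 and 2.99 CPM in the controls and 11.5, 9.29 and 11.9 CPM at 40 µM. The lowest treated library was well above the highest control, with a log2 fold change of 1.75 ± 0.17 (SE), adjusted p = 0.000598 and a mean of 36.7 CPM at 80 µM. RAB39B, a small GTPase of vesicle traffic, rose from 1.49, 2.01 and 1.23 CPM to 6.42, 4.68 and 4.74 CPM (log2 fold change of 1.74 ± 0.22 (SE), adjusted p = 0.0028). LAMP3, a lysosome-associated membrane protein found in few tissues, rose from 9.24, 8.18 and 9.19 CPM to 21.8, 27.8 and 24.1 CPM (log2 fold change of 1.47 ± 0.13 (SE), adjusted p = 0.000316). DRAM1, a lysosomal membrane protein known as a p53-responsive modulator of autophagy and not in the p53 list used here, rose from 2.5, 2.23 and 3.14 CPM to 9.48, 6.69 and 8.38 CPM (log2 fold change of 1.64 ± 0.19 (SE), adjusted p = 0.00189). In these 4 genes each treated library lay above each control, as in 12.9% of all tested genes. ATP6V0A1, a membrane subunit of the proton pump that acidifies lysosomes, rose from 61.6, 60.4 and 61.5 CPM to 103, 126 and 126 CPM (log2 fold change of 0.95 ± 0.11 (SE), adjusted p = 0.00169).

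At the endoplasmic reticulum, 3 genes that are not in the chaperone list rose. CCPG1, a receptor that hands parts of the endoplasmic reticulum to autophagy, rose from 38.0, 43.1 and 31.5 CPM to 85.6, 91.6 and 84.7 CPM (log2 fold change of 1.22 ± 0.14 (SE), adjusted p = 0.00159). CLGN, the chaperone calmegin of the calnexin family best known from testis, rose from 13.0, 13.5 and 11.2 CPM to 28.3, 37.3 and 30.0 CPM (log2 fold change of 1.34 ± 0.15 (SE), adjusted p = 0.00126). MIA2, which loads large cargo at exit sites, rose from 25.5, 26.0 and 24.1 CPM to 44.1, 53.3 and 46.9 CPM (log2 fold change of 0.93 ± 0.13 (SE), adjusted p = 0.0044). NIBAN1 (ENSG00000135842, chr1:184790724-184974550, minus strand, GRCh38), a stress-linked regulator of translation, stood at 30.3, 36.2 and 35.0 CPM in the controls and 99.0, 91.5 and 105 CPM at 40 µM. Each treated library lay above the control range, as in 12.9% of all tested genes. Its log2 fold change was 1.54 ± 0.11 (SE), adjusted p = 7.62e-05, with a mean of 291 CPM at 80 µM.

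The machinery around these genes was mostly not called. In families chosen after the values were seen, 2 of 17 proton pump subunits (11.8%), 4 of 39 SNARE, synaptotagmin and synaptic vesicle genes (10.3%) and 1 of 9 receptors for autophagy of the endoplasmic reticulum, CCPG1 itself (11.1%), rose, where 1.49% of all tested genes rose. None of 33 core autophagy genes was called (median log2 fold change 0.08). An unadjusted p under 0.05 was found in 8 of the 33, where 19.9% of all tested genes had one, and DESeq2 called 1, WIPI1. Of 42 lysosomal acid hydrolases none rose and 2 fell, NAGLU and SMPD1 (4.76% called against 2.3% of all tested genes). The NAGLU call was lost without 8 of the 9 libraries, all but 40 µM replicate 1 (up to adjusted p = 0.116 without 40 µM replicate 2), and the SMPD1 call without 7, all but 40 µM replicate 3 and 80 µM replicate 2 (up to adjusted p = 0.128 without control replicate 1). Of 45 proteasome genes none was called, with log2 fold changes between -0.49 and 0.34, 3 of them at an unadjusted p under 0.05 and none called by DESeq2.

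**Figure D2:**
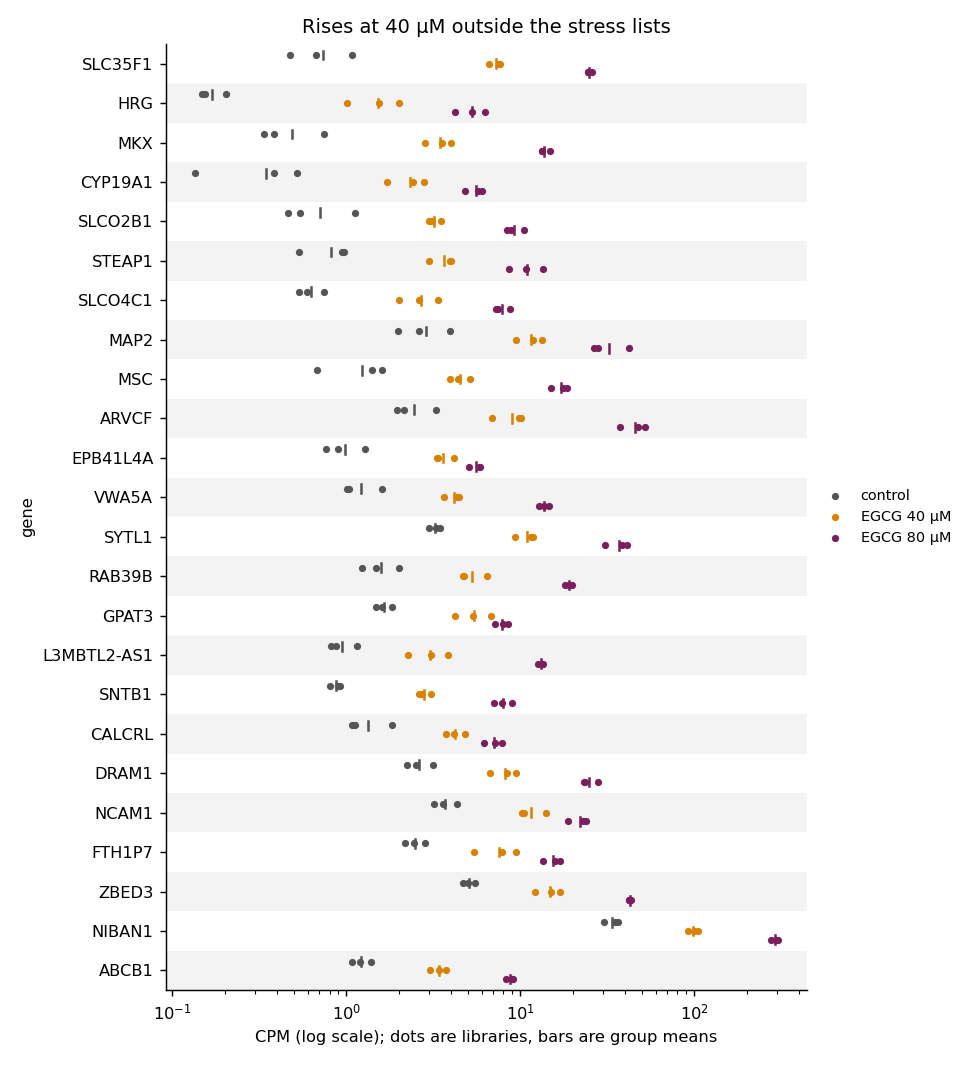
CPM (x axis, log scale) of the 24 largest rises called in all alternatives outside the stress lists, ordered by fold change (y axis), leaving out genes with a library at 0. Dots are the 3 libraries of each group and short bars are group means; in every row the 40 µM dots lie to the right of the control dots, and the 80 µM mean lies farther right again.

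Promoter sequence was looked at for SYTL1, CALCRL, PIP4K2C and ATP6V0A1, chosen as the called genes outside the stress lists, secure in all alternatives, with the smallest p that hold a letter pattern known for ATF4 or for NRF2. The sequences are the 250 bases before the RefSeq start on GRCh38.p14, written 5′ to 3′ on the gene's strand, with matching letters in capitals. The first pattern, TGATGNAA on either strand, is that of the element bound by ATF4 with a C/EBP partner, and it lies in SYTL1 (chr1:27341772-27342021, plus strand) and CALCRL (chr2:187448253-187448502, minus strand).
SYTL1: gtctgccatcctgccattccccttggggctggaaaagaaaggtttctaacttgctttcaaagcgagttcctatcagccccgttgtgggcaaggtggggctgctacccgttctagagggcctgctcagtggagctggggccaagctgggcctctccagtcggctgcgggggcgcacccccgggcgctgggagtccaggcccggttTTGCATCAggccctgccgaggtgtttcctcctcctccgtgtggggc
CALCRL: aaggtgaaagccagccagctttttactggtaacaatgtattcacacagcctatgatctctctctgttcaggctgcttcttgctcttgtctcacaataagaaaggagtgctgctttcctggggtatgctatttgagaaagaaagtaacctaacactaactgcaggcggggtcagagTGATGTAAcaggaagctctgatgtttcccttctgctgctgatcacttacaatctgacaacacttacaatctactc
The second pattern, TGACNNNGC on either strand, is the core of the antioxidant response element bound by NRF2, and it lies in PIP4K2C (chr12:57590942-57591191, plus strand) and ATP6V0A1 (chr17:42458628-42458877, plus strand).
PIP4K2C: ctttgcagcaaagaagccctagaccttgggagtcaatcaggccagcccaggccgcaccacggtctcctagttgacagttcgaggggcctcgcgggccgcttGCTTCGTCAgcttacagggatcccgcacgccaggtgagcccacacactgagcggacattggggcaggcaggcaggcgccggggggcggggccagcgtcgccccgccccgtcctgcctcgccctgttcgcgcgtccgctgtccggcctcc
ATP6V0A1: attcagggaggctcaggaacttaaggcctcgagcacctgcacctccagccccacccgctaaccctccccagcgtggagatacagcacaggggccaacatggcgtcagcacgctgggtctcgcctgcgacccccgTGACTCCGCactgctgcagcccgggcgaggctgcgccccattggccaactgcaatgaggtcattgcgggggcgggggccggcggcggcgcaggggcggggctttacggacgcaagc
The capitals mark only the pattern under which a gene is shown, and CALCRL also holds 1 match of TGACNNNGC, left in lower case. In SYTL1 the match starts 46 bases before the start site and in CALCRL 75, in PIP4K2C 149 and in ATP6V0A1 116.

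The same patterns were counted in the windows of all genes. RefSeq held a window for 10652 of the tested genes and for 259 of the 368 called genes. TGATGNAA lay in 1.34% of the tested genes' windows (and 3.19% of all 27305), in 4 of 131 rises outside the stress lists (3.05%), in 3 of 41 rises inside them (7.32%), and in none of 87 falls. TGACNNNGC lay in 12.2% of the tested windows, in 18 of 131 rises outside the stress lists (13.7%) and in 11 of 41 inside them (26.8%). The palindrome CACGTG, read by MYC, MAX and TFEB, lay in 9.03% of the tested windows, in 13 of 87 falls (14.9%) and in 9 of 172 rises (5.23%). The cyclic AMP pattern TGACGTCA lay in 2.86% of the tested windows, in 3 rises and in 1 fall. The sterol pattern TCACNCCAC lay in 0.882% of the tested windows, in 5 rises and in 2 falls. A match describes letters and not a bound site.

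Among signalling genes, the receptor CALCRL and regulators of calcium and lipid signals rose. CALCRL binds the calcitonin gene related peptide or adrenomedullins, depending on its partner, and it stood at 1.82, 1.12 and 1.07 CPM in the controls and 3.73, 4.17 and 4.81 CPM at 40 µM. Its groups did not overlap, as in 12.9% of all tested genes in this direction. The log2 fold change of CALCRL was 1.65 ± 0.25 (SE), adjusted p = 0.00825. ADM2, the gene of adrenomedullin 2, a ligand of that receptor, is in the ATF4 list and rose from 5.47, 3.35 and 5.51 CPM to 32.3, 25.6 and 28.7 CPM (log2 fold change of 2.59 ± 0.24 (SE), adjusted p = 0.000423). Among 4 tested genes of the calcitonin family, chosen after the values were seen, these were the 2 called (50% against 2.3% of all tested genes). RCAN2, a regulator of the phosphatase calcineurin, had 6 reads in all controls together and 103 at 40 µM, a ratio of 16.1 (95% interval 7.16 to 45, for counting error only). The RCAN2 call held in all alternatives (adjusted p = 0.00448), while its paralogs stayed uncalled, RCAN1 at a log2 fold change of 0.02 and RCAN3 at -0.30. No other gene of the calcium list was called, 1 of 37 in all (2.7% against 2.3% of all tested genes). PIP4K2C, a kinase of phosphoinositide lipids, rose from 10.2, 8.48 and 12.6 CPM to 26.2, 29.1 and 27.9 CPM (log2 fold change of 1.41 ± 0.15 (SE), adjusted p = 0.000998).

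F2R, the thrombin receptor PAR1, rose from 10.9, 10.3 and 9.57 CPM to 17.7, 20.1 and 18.2 CPM (log2 fold change of 0.86 ± 0.12 (SE), adjusted p = 0.00507). ARHGAP9, which switches off small GTPases in blood cells, rose from 5.60, 4.39 and 5.05 CPM to 13.6, 12.4 and 14.4 CPM (log2 fold change of 1.42 ± 0.15 (SE), adjusted p = 0.00113). CDC42SE1, a small effector of CDC42, rose from 82.5, 65.8 and 86.0 CPM to 139.9, 163 and 143 CPM (log2 fold change of 0.93 ± 0.12 (SE), adjusted p = 0.00339). All 3 were higher in each treated library than in any control, as were 12.9% of all tested genes.

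A pair of genes that dampen signals at the membrane fell. RGS1 (ENSG00000090104, chr1:192575727-192580031, plus strand, GRCh38), which speeds the shut-off of G proteins in B cells, fell from 576, 628 and 432 CPM to 134, 159 and 125 CPM. RGS2, its relative, fell from 92.7, 91.6 and 72.0 CPM to 32.2, 35.6 and 30.6 CPM. The highest treated library lay under the lowest control in both, as in 11.5% of all tested genes. They had a log2 fold change of -1.97 ± 0.16 (SE), adjusted p = 0.000194 for RGS1 and a log2 fold change of -1.38 ± 0.15 (SE), adjusted p = 0.00139 for RGS2. These were 2 of 8 RGS genes tested, and the median of the 8 was -0.46. At an unadjusted p under 0.05, 4 of the 8 were lower and none higher, while RGS16 and RGS10 stood at log2 fold changes of 0.11 and 0.00. In the whole list of G protein and cyclic AMP genes, 3 of 59 fell and none rose (5.08% called against 2.3% of all tested genes). None of 25 G protein coupled receptors was called. An unadjusted p under 0.05 was found in 6 of the 25, where 19.9% of all tested genes had one, and DESeq2 called 3. The third fall of that list, ADCY3, an adenylyl cyclase, was lost without 7 of the 9 libraries, all but control replicate 3 and 40 µM replicate 2 (up to adjusted p = 0.12 without 40 µM replicate 3).

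The kinase genes SGK1 and WNK2 fell as well. SGK1, the serum and glucocorticoid regulated kinase, fell from 192, 144 and 176 CPM to 85.3, 99.5 and 92.0 CPM (log2 fold change of -0.89 ± 0.13 (SE), adjusted p = 0.00595). WNK2, a kinase that controls ion cotransport, fell from 44.9, 43.0 and 44.0 CPM to 21.6, 19.1 and 20.3 CPM (log2 fold change of -1.11 ± 0.13 (SE), adjusted p = 0.00232), and its mean at 80 µM was 9.82 CPM. CD320, the receptor that takes up vitamin B12 bound to transcobalamin, fell from 407, 396 and 484 CPM to 271, 231 and 247 CPM (log2 fold change of -0.78 ± 0.11 (SE), adjusted p = 0.0044). No treated library of SGK1, WNK2 or CD320 reached the control range, as in 11.5% of all tested genes in this direction. PLXND1, a semaphorin receptor, fell from 23.2, 22.8 and 29.7 CPM to 12.8, 12.2 and 12.4 CPM (log2 fold change of -1.02 ± 0.15 (SE), adjusted p = 0.00647). SEMA3G, a secreted semaphorin, fell from 12.2, 13.9 and 16.8 CPM to 7.28, 5.90 and 6.93 CPM (log2 fold change of -1.09 ± 0.17 (SE), adjusted p = 0.00876). Of 23 tested genes in the semaphorin and ephrin list, which does not hold SEMA3G, PLXND1 was the only one called (4.35% against 2.3% of all tested genes).

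RNA-binding regulators gave the fall with the smallest p outside the stress lists. PTBP1 (ENSG00000011304, chr19:797075-812327, plus strand, GRCh38), which binds polypyrimidine tracts and represses exons, fell from 657, 666 and 733 CPM to 230.1, 262 and 253 CPM. The 3 treated libraries lay close together, each under the lowest control by more than 2-fold, and the log2 fold change was -1.47 ± 0.09 (SE), adjusted p = 7.35e-05. At 80 µM the mean was 241 CPM, within the range of the libraries at 40 µM. Its paralogs were not called, PTBP2 at 0.47 and PTBP3 at 0.27 (log2 fold changes). ZFP36L2, which binds AU-rich elements and speeds the decay of messages, fell from 689, 662 and 638 CPM to 338, 325 and 344 CPM (log2 fold change of -0.98 ± 0.09 (SE), adjusted p = 0.000344). With ZFP36L1 these were the 3 called of 66 splicing regulators and RNA-binding genes (4.55% against 2.3% of all tested genes). All 3 were lower, and the list's median was -0.09. The call on ZFP36L1 was lost without 4 of the 9 libraries, 40 µM replicate 2, 40 µM replicate 3, control replicate 1 and control replicate 2 (up to adjusted p = 0.0774 without 40 µM replicate 3), and its level at 80 µM, 46.7 CPM, lay close to the control mean of 54.0 CPM.

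Transcription factor genes were found among both rises and falls. MKX, a homeobox factor of tendon, rose from 0.337, 0.744 and 0.383 CPM to 3.97, 3.53 and 2.84 CPM (log2 fold change of 2.81 ± 0.29 (SE), adjusted p = 0.000815), with a mean of 13.8 CPM at 80 µM. MSC, a repressor of the basic helix-loop-helix class first found in B cells, rose from 0.675, 1.41 and 1.61 CPM to 4.40, 3.96 and 5.10 CPM (log2 fold change of 1.87 ± 0.27 (SE), adjusted p = 0.00647). ETV5, an ETS factor, rose from 8.03, 5.80 and 7.88 CPM to 14.9, 18.5 and 16 CPM (log2 fold change of 1.18 ± 0.15 (SE), adjusted p = 0.0031). HES1, the repressor downstream of Notch, fell from 45.8, 41.3 and 50.1 CPM to 19.1, 13.2 and 14 CPM (log2 fold change of -1.57 ± 0.16 (SE), adjusted p = 0.000979). The groups did not overlap in any of these 4 (over all tested genes, 12.9% higher and 11.5% lower). Of 72 developmental factors, 1 rose and 2 fell (4.17% called against 2.3% of all tested genes). The second fall was ID2, which was lost without 6 of the 9 libraries, 40 µM replicate 1, 40 µM replicate 3, 80 µM replicate 1, control replicate 1, control replicate 2 and control replicate 3 (up to adjusted p = 0.121 without 40 µM replicate 3). Among 423 zinc finger genes named ZNF, 7 were called (1.65%), under the share over all genes, and none of 40 TRIM genes and none of 103 chromatin modifiers was called. An unadjusted p under 0.05 was found in 7 TRIM genes and 18 chromatin modifiers, where 19.9% of all tested genes had one, and DESeq2 called 3 of each.

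**Figure D3:**
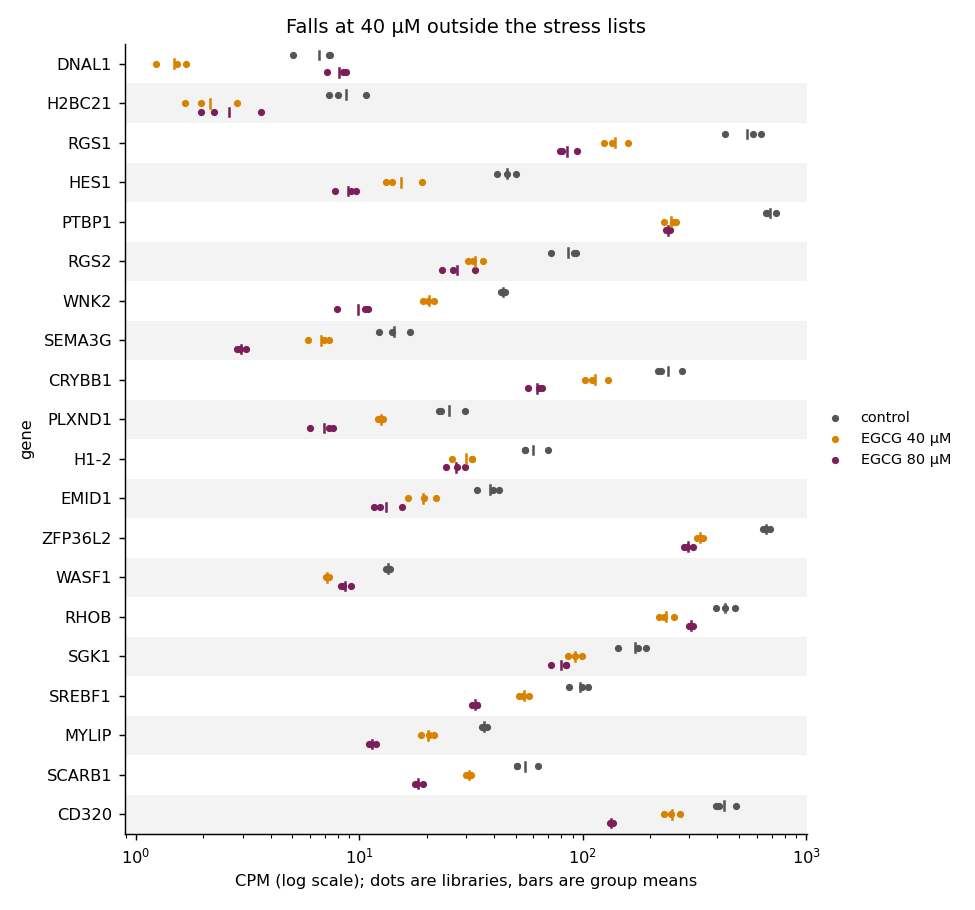
CPM (x axis, log scale) of the 20 named falls called in all alternatives outside the stress lists, ordered by fold change (y axis). Dots are the 3 libraries of each group and short bars are group means; the 40 µM dots lie left of the control dots in every row, while the 80 µM mean of DNAL1 lies right of its control dots.

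Cytoskeleton and cell-contact genes were among the rises. MAP2, the microtubule-binding protein of dendrites, rose from 2.63, 3.94 and 1.99 CPM to 13.3, 11.8 and 9.41 CPM (log2 fold change of 2.01 ± 0.27 (SE), adjusted p = 0.0044). NCAM1, the adhesion molecule CD56 that many myelomas carry, rose from 4.32, 3.20 and 3.60 CPM to 10.4, 10.2 and 14 CPM (log2 fold change of 1.64 ± 0.19 (SE), adjusted p = 0.00173). ARVCF, a catenin of the p120 class, rose from 1.96, 3.27 and 2.14 CPM to 9.84, 6.91 and 10.1 CPM (log2 fold change of 1.86 ± 0.24 (SE), adjusted p = 0.00335), and its mean at 80 µM was 45.5 CPM. In these 3 genes the lowest treated library was at least 2-fold above the highest control. EPB41L4A, a band 4.1 membrane linker, and SNTB1, a syntrophin, also rose (log2 fold change 1.86, adjusted p = 0.00432 and log2 fold change 1.68, adjusted p = 0.00349). VIM, the intermediate filament vimentin, rose from a high level, 289.7, 234 and 278 CPM in the controls and 400.2, 574 and 495 CPM at 40 µM (log2 fold change of 0.87 ± 0.14 (SE), adjusted p = 0.0105).

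The actin regulators RHOB and WASF1 fell. RHOB, a small GTPase with rapid turnover, fell from 430.5, 395 and 478 CPM to 256, 229.8 and 219 CPM (log2 fold change of -0.89 ± 0.10 (SE), adjusted p = 0.00169). WASF1, which drives actin branching, fell from 13.6, 13.5 and 13.1 CPM to 7.15, 7.27 and 7.07 CPM (log2 fold change of -0.90 ± 0.13 (SE), adjusted p = 0.00542). The 3 treated libraries of WASF1 lay within 0.2 CPM of one another. Both were nearer to control at 80 µM, at means of 304 CPM and 8.63 CPM. In lists on the cytoskeleton and cell contact, 2 of 39 microtubule genes (5.13%) and 3 of 45 adhesion and guidance genes (6.67%) were called. Over all tested genes the share was 2.3%. The medians of these lists were 0.09 and 0.03. None of 29 kinesins was called. An unadjusted p under 0.05 was found in 9 of the 29, where 19.9% of all tested genes had one, and DESeq2 called 5.

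Lipid genes were split. GPAT3, which starts the synthesis of triglycerides, rose from 1.82, 1.49 and 1.61 CPM to 4.22, 5.33 and 6.78 CPM (log2 fold change of 1.72 ± 0.23 (SE), adjusted p = 0.00387). SREBF1, the transcription factor that turns on fatty acid synthesis, fell from 99.5, 86.8 and 105 CPM to 57.5, 53.8 and 51.8 CPM (log2 fold change of -0.84 ± 0.11 (SE), adjusted p = 0.00341). SCARB1, the receptor for high-density lipoprotein, fell from 50.5, 51.0 and 63.2 CPM to 30.0, 30.9 and 31.5 CPM (log2 fold change of -0.83 ± 0.12 (SE), adjusted p = 0.00562). MYLIP, a ligase that marks the LDL receptor for breakdown, fell from 37.4, 35.3 and 36.1 CPM to 21.5, 18.9 and 20.6 CPM (log2 fold change of -0.84 ± 0.11 (SE), adjusted p = 0.00386). The 3 falls were without overlap, as were 11.5% of all tested genes in this direction, and their means were lower again at 80 µM, at means of 33.0 CPM, 18.4 CPM and 11.4 CPM. Of 32 cholesterol genes chosen after the values were seen, 1 rose and 3 fell (12.5% called), and of 20 fatty acid synthesis genes, chosen in the same way, 2 rose and 2 fell (20% called), where 2.3% of all tested genes were called. Of 103 sphingolipid and phospholipid genes, 2 rose and 2 fell (3.88%). CYP19A1, the aromatase that makes oestrogen, had 14 reads in the controls together and 100 at 40 µM, a ratio of 6.71 (95% interval 3.82 to 12.7, for counting error only; adjusted p = 0.00584).

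Genes of iron uptake and of iron storage were both among the rises. TFRC (ENSG00000072274, chr3:196027183-196082189, minus strand, GRCh38), the receptor that brings in transferrin iron, rose from 506, 534 and 399 CPM to 908, 1023 and 1022 CPM (log2 fold change of 1.04 ± 0.12 (SE), adjusted p = 0.00191), and its mean at 80 µM was 622 CPM. FTH1, the heavy chain of ferritin that stores iron, rose from 72.6, 70.8 and 83.8 CPM to 158, 152 and 177 CPM (log2 fold change of 1.10 ± 0.10 (SE), adjusted p = 0.00049), and is in the NRF2 list. STEAP1, of the family of metal reductases, rose from 0.945, 0.967 and 0.536 CPM to 3.00, 3.96 and 4.01 CPM (log2 fold change of 2.14 ± 0.29 (SE), adjusted p = 0.00434). In a list of 23 iron genes chosen after the values were seen, these 3, FTL and HMOX1 were the 5 called, all higher (21.7%, where 1.49% of all tested genes rose), and the median was 0.11. The call on FTL was lost without 3 of the 9 libraries, 40 µM replicate 3, control replicate 1 and control replicate 2 (up to adjusted p = 0.0872 without control replicate 1). Of 8 ferritin pseudogenes, near copies whose reads may come from FTH1 or FTL, 5 were called higher (62.5%, where 1.49% of all tested genes rose) and FTH1P7 held in all alternatives (log2 fold change 1.60, adjusted p = 0.00562).

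Interferon-linked genes gave a pair of secure rises. OAS3, an enzyme that senses double-stranded RNA, rose from 6.34, 6.10 and 9.03 CPM to 16.9, 15.5 and 15.7 CPM (log2 fold change of 1.16 ± 0.17 (SE), adjusted p = 0.00615). SLFN5, of the Schlafen family, rose from 10.6, 10.8 and 8.96 CPM to 27.9, 26.0 and 30.5 CPM (log2 fold change of 1.47 ± 0.13 (SE), adjusted p = 0.000354). Both had groups without overlap (12.9% of all tested genes in this direction). Of 38 interferon-stimulated genes chosen after the values were seen, 4 rose and none fell (10.5%, where 2.3% of all tested genes were called; median 0.14).

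Both ribosomal RNAs of the mitochondrial genome rose. MT-RNR1 was read at 492, 517 and 554 CPM in the controls and 958, 1176 and 959.9 CPM at 40 µM (log2 fold change of 0.99 ± 0.11 (SE), adjusted p = 0.00169), and MT-RNR2 at 5828, 6626 and 7066 CPM and 11920, 15910 and 12640 CPM (log2 fold change of 1.05 ± 0.14 (SE), adjusted p = 0.00395). Together they took 0.649% to 0.731% of the counts in the controls and 1.28%, 1.63% and 1.37% at 40 µM, the highest in replicate 2, the library with the highest mitochondrial share. None of the 13 mitochondrial messages was called by either edgeR or DESeq2, and their log2 fold changes ran from 0.03 to 0.46 with a median of 0.22. Of 76 mitochondrial ribosomal protein genes only MRPL4 was called, lower (1.32%). None of 78 cytosolic ribosomal protein genes was called by edgeR or DESeq2. Over all tested genes 2.3% were called. An unadjusted p under 0.05 was found in 4 of the 13 messages, all higher, and in 5 of the 78 cytosolic genes, where 19.9% of all tested genes had one. The MRPL4 call was lost without 4 of the 9 libraries, 40 µM replicate 2, 40 µM replicate 3, control replicate 1 and control replicate 3 (up to adjusted p = 0.0919 without control replicate 1). The sources used here do not say how RNA was selected before library making, and its part in these levels was not tested.

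The histone genes H2BC21 and H1-2 fell. H2BC21 fell from 10.7, 7.29 and 8.04 CPM to 1.96, 1.66 and 2.84 CPM (log2 fold change of -2.01 ± 0.29 (SE), adjusted p = 0.00647), and the linker histone gene H1-2 fell from 54.9, 55.3 and 69.9 CPM to 31.9, 31.9 and 25.9 CPM (log2 fold change of -1.005 ± 0.14 (SE), adjusted p = 0.00552). The treated and control libraries of both genes were apart, as in 11.5% of all tested genes in this direction. H2BC21 and H1-2 were the 2 called of 33 histone genes (6.06% against 2.3% of all tested genes). The log2 fold changes of the 33 ran from -2.01 to 0.45 with a median of -0.45, beside 0.0147 over all tested genes. Replication and cyclin genes, chosen after the values were seen, gave no call among 31, with log2 fold changes from -0.44 to 0.48. An unadjusted p under 0.05 was found in 7 of the 31, where 19.9% of all tested genes had one. DESeq2 called 1, E2F1.

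Several genes almost silent in the controls came up. RNF150, a RING finger membrane protein, had 2 reads in the controls together and 71 at 40 µM, a ratio of 33.4 (95% interval 8.9 to 281). HRG, histidine-rich glycoprotein, had 7 and 68 reads, a ratio of 9.13 (4.2 to 23.6). These intervals cover counting error only, and both calls held in all alternatives (adjusted p = 0.00647 and 0.00434). STK32A, a little studied kinase, had no read in any control library and 34 at 40 µM. Its ratio was 10.6 against a floor of 3 reads over the control group. The 95% interval for STK32A over control, for counting error only, began at 8.2. Its call held without each single library and was lost with the replicate number as a block (adjusted p = 0.0508). In all, 38 of the 238 rises, and none of the 130 falls, had a control mean under 1 CPM. The expression filter admits a gene read in only 1 group, and a gene this low in the controls has little room to be called lower. The difference between rises and falls in this count is therefore not a result.

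Further secure genes belong to no list used here. VWA5A, a protein with a von Willebrand factor A domain, rose from 1.01, 1.04 and 1.61 CPM to 4.34, 4.46 and 3.65 CPM (log2 fold change of 1.77 ± 0.22 (SE), adjusted p = 0.00277). ZBED3, which binds axin in WNT signalling, rose from 4.66, 5.50 and 4.98 CPM to 12.2, 15 and 17.0 CPM (log2 fold change of 1.54 ± 0.15 (SE), adjusted p = 0.000598). The groups did not overlap in VWA5A or ZBED3, as in 12.9% of all tested genes in this direction. APBB2, which binds the amyloid precursor protein, and ANKRD49, an ankyrin repeat protein, also rose (log2 fold change 1.02, adjusted p = 0.00529 and log2 fold change 0.97, adjusted p = 0.00277). CRYBB1, a beta crystallin known from the eye lens, fell from 224, 216 and 279 CPM to 129, 109.7 and 103 CPM (log2 fold change of -1.07 ± 0.13 (SE), adjusted p = 0.00245). EMID1, a protein of the extracellular matrix, fell from 39.5, 33.5 and 42.3 CPM to 21.9, 16.6 and 19.4 CPM (log2 fold change of -0.99 ± 0.16 (SE), adjusted p = 0.011).

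Several other named calls were lost when 1 library was left out. Among cytokine genes and their receptors 2 of 49 fell and none rose (4.08% called against 2.3% of all tested genes, median -0.22). They were TNFRSF1B, a receptor of tumour necrosis factor, lost without 40 µM replicate 2, 40 µM replicate 3 and control replicate 3 (up to adjusted p = 0.0884 without 40 µM replicate 3), and IL16, a chemoattractant of T cells, lost without 40 µM replicate 2, 40 µM replicate 3, 80 µM replicate 2, 80 µM replicate 3, control replicate 2 and control replicate 3 (up to adjusted p = 0.095 without 40 µM replicate 3). GALNT3, which starts O-linked glycans, rose, but was lost without 40 µM replicate 2, 40 µM replicate 3, control replicate 1, control replicate 2 and control replicate 3 (up to adjusted p = 0.0973 without 40 µM replicate 3). KLHL6, a ubiquitin ligase adaptor of B cells, rose by 0.47 on the log2 scale and was lost without 40 µM replicate 3, control replicate 1 and control replicate 3 (up to adjusted p = 0.077 without 40 µM replicate 3). It was the only call among 114 ubiquitin ligases and deubiquitinases (0.877% against 2.3% of all tested genes). BMP6, SULF1 and GAS6 fell, and their calls were lost without any 1 of the 9 libraries (up to adjusted p = 0.152 without 40 µM replicate 3, adjusted p = 0.139 without control replicate 1 and adjusted p = 0.167 without 40 µM replicate 3). GAS6, the ligand of the TAM receptor kinases, had the largest of these in level, from 1024, 1105 and 1278 CPM to 854, 816 and 738 CPM (log2 fold change of -0.50 ± 0.11 (SE), adjusted p = 0.0464). In NDUFA4L2, a mitochondrial protein induced by low oxygen, the levels were 0.270, 0.893 and 0.919 CPM in the controls and 3.85, 1.94 and 5.4 CPM at 40 µM, and the call was lost without 40 µM replicate 3, control replicate 1 and control replicate 3 (up to adjusted p = 0.0754 without control replicate 1).

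The mean at 80 µM was farther from control than that at 40 µM in 210 of the 238 rises and 88 of the 130 falls. Since both doses share the control libraries, these counts are a description. In 7 rises and 14 falls the level went back, with the 80 µM libraries called against those at 40 µM in the opposite direction. DNAL1 (ENSG00000119661, chr14:73644875-73703732, plus strand, GRCh38), a light chain of the dynein motor of cilia, was the clearest. It stood at 7.29, 7.36 and 5.05 CPM in the controls, 1.53, 1.22 and 1.68 CPM at 40 µM and 7.14, 8.47 and 8.73 CPM at 80 µM. The libraries at 40 µM lay under all others. The log2 fold change was -2.15 ± 0.23 (SE), adjusted p = 0.000979 at 40 µM, and 0.30 at 80 µM. OXSM, which extends fatty acids in mitochondria, stood at 11.3, 13.0 and 14.3 CPM, 24.3, 27.7 and 25.6 CPM and 15, 12.4 and 17.3 CPM in the same order (log2 fold change of 1.01 ± 0.15 (SE), adjusted p = 0.00839 at 40 µM). TFRC and RHOB, with the values given above, are the other secure calls of this kind. Both went back only in part and were still called at 80 µM against control, TFRC higher (log2 fold change 0.38, adjusted p = 0.0348) and RHOB lower (log2 fold change -0.51, adjusted p = 0.00316). UVSSA, involved in DNA repair, went past the control level: its means were 19.7 CPM in the controls, 12.1 CPM at 40 µM and 48.4 CPM at 80 µM, where it was called higher than control (log2 fold change 1.29, adjusted p = 0.000149). Of the genes of this kind named by rule, KCNS3, P2RY6, UVSSA, ZNF607 and PNPLA2 had calls at 40 µM that were lost without 8 or 9 of the 9 libraries (up to adjusted p = 0.149 without 40 µM replicate 3). These genes were chosen for the return, so it is not tested further.

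**Figure D4:**
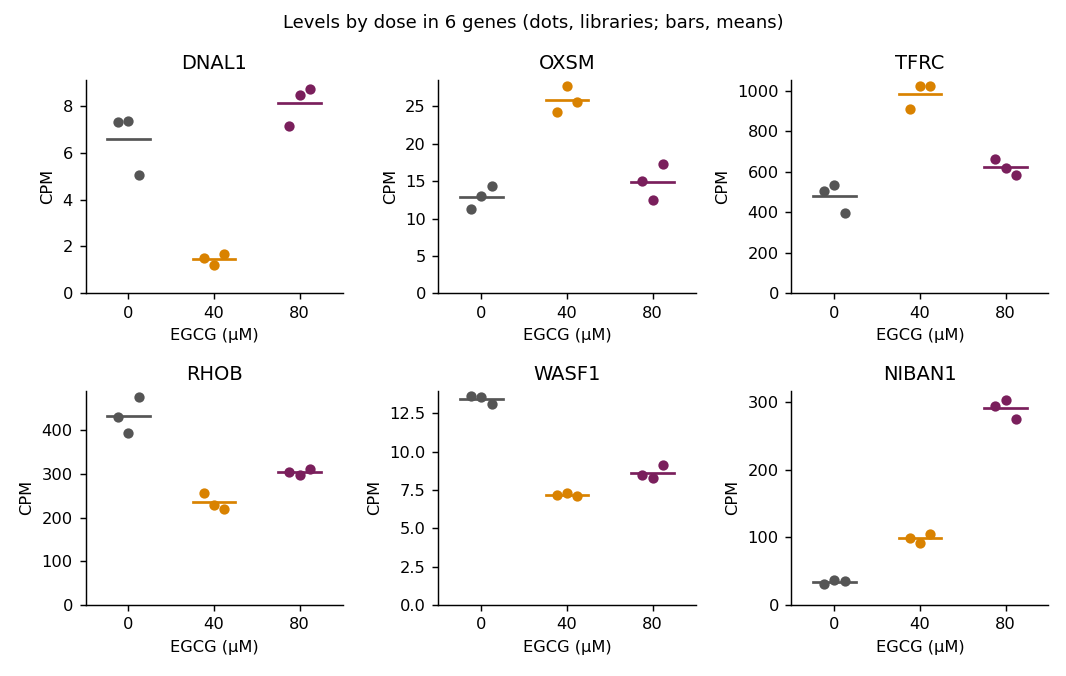
CPM (y axes, from 0) by EGCG dose (x axes, µM) for DNAL1, OXSM, TFRC, RHOB, WASF1 and NIBAN1. Dots are libraries and bars group means; the 40 µM libraries are the lowest for DNAL1 and the highest for OXSM and TFRC, the 80 µM means of TFRC, RHOB and WASF1 lie between the other groups, and NIBAN1 is higher at each dose.

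The function lists had smaller shares called than the ATF4, NRF2, immediate early, p53, endoplasmic reticulum chaperone and heat shock lists. Of the 16 function lists the highest share called was 6.67%, in adhesion and guidance genes, and the lowest 0%, in chromatin modifiers. The shares thus lay on both sides of the 2.3% over all tested genes. In the stress lists 27 of 48 ATF4 targets rose and 1 fell (58.3%), 11 of 32 NRF2 targets rose (34.4%), and 8 of 25 immediate early genes fell (32.0%). Of 30 p53 targets 6 rose and 1 fell (23.3%). Of 29 endoplasmic reticulum chaperone genes 3 rose (10.3%), of 20 heat shock genes 2 rose (10.0%), and none of 2 metallothionein genes was called. Those lists were chosen with earlier results of these data known. None of 28 apoptosis regulators was called, with log2 fold changes from -0.53 to 1.35. An unadjusted p under 0.05 was found in 8 of the 28, where 19.9% of all tested genes had one. DESeq2 called 2 of them, BCL2L1 and CASP10. Of the 15 plasma cell markers tested, IRF4 alone was called: 999, 1012 and 1030 CPM in the controls and 1274, 1374 and 1433 CPM at 40 µM (log2 fold change of 0.42 ± 0.09 (SE), adjusted p = 0.0331). The call on IRF4, the survival factor of myeloma cells, was lost without 8 of the 9 libraries, all but 40 µM replicate 1 (up to adjusted p = 0.127 without control replicate 1). None of 11 immunoglobulin genes and none of 10 HLA genes was called, where 2.3% of all tested genes were. Their median log2 fold changes were -0.47 and -0.26. At an unadjusted p under 0.05, 4 immunoglobulin and 2 HLA genes were lower and none higher, where 19.9% of all tested genes had such a p. DESeq2 called 1 immunoglobulin gene and no HLA gene.

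**Figure D5:**
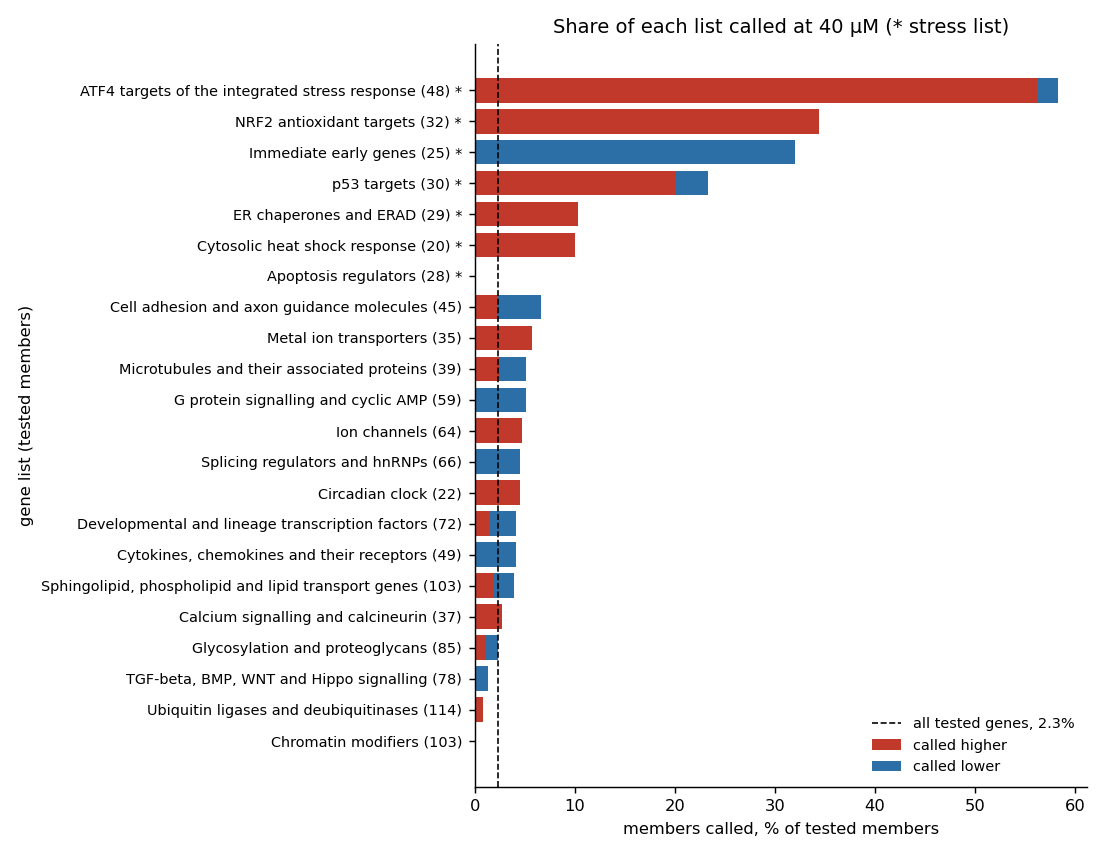
Share of tested members called at 40 µM (x axis, %) for stress lists (marked with a star) and most function lists (y axis, tested members in brackets), red for higher and blue for lower, leaving out lists with fewer than 10 tested members. The dashed line marks the 2.3% called over all tested genes; the ATF4 list reaches 58.3% and no function list shown passes 6.67%.

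Some named genes, ARVCF among them, share their place with another gene, and without a known strand setting their reads may be mixed. ARHGAP9 overlaps MARS1 (log2 fold change 0.23), OXSM overlaps NGLY1 (0.03) and SREBF1 overlaps RAI1 (-0.37), each on the opposite strand, and none of these 3 partners was called. NDUFA4L2, with 192 reads in the 6 libraries compared, overlaps SHMT2 on the opposite strand, which had 18798 reads and was not called (0.20). ETV5 overlaps DGKG on the same strand, and DGKG was also called higher (0.63). Among noncoding genes, L3MBTL2-AS1, antisense to L3MBTL2, rose from 0.877, 0.818 and 1.15 CPM to 3.06, 3.81 and 2.26 CPM (log2 fold change of 1.68 ± 0.25 (SE), adjusted p = 0.007), while L3MBTL2 was not called (-0.20). Of 1741 long noncoding genes 9 were called (0.517%), and of protein-coding genes 2.74%, a difference that was not tested. A single library stood apart in NIPA1, a magnesium transporter gene among the largest fitted rises: 0.742, 1.49 and 3.52 CPM in the controls and 2.81, 33.4 and 34.6 CPM at 40 µM, with replicate 1 inside the control range. Its call was lost without 8 of the 9 libraries, all but 40 µM replicate 1 (up to adjusted p = 0.152 without control replicate 1).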

How the data were processed

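RNA-seq of MM.1S cells was deposited as 1 table of raw counts per gene for 9 libraries, with FPKM values of the authors, per the file headers, that were not used here. Alignment tools (HISAT2; SAMtools 1.3.1), base calling software (CASAVA 1.8), edgeR and the build GRCh38 are listed, per the submitters' processing notes. The strand setting and the selection of RNA are not stated in them. From the deposited counts, genes were kept by filterByExpr and fitted over all 9 libraries with edgeR 4.0.16 in R 4.3.3 (TMM scaling, quasi-likelihood test, Benjamini-Hochberg adjustment over 15982 genes). A gene was called at an adjusted p under 0.05. All adjusted p-values come from this fit unless an alternative is named. The functions were tested on simulated data.

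Called genes were named by rule: the 15 largest rises and falls outside the stress lists with a mean of 2 CPM or more and groups without overlap, the 8 largest each way in CPM, the 3 with the smallest p in each function list and symbol family, and up to 4 each way that went back at 80 µM. A choice of them is described. The 70 genes called in all alternatives were added after their values were seen. The members and lists were chosen with earlier results of these data known. Libraries were grouped by their labelled dose. Same-numbered libraries of the control and 40 µM groups correlated at -0.0262, -0.00234 and -0.139 after subtracting group means, so replicate numbers were not taken as pairs. Totals of 12674490 to 16427343 reads set the precision, and intervals on reads cover counting error only. A few items are not reported here.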

Additional observations from a re-analysis of the deposited data

How the results depend on the processing

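The number of genes called at 40 µM, 368, depended on the method: DESeq2 called 847, the fit with no filter on low counts 228, the fit on only the 6 libraries compared 153, and the fit with a replicate block 183. Leaving out each library in turn gave 136 to 469 calls, and 86 to 190 calls with a change of 2-fold or more. With the replicate block, 106 genes changed 2-fold or more and 97 kept their call of 146 called genes followed singly through the alternatives (those named by rule, those called in all alternatives, and others added after their values were seen). Of the 368 calls, 100 held in all 14 alternatives, and none reversed direction in any of them. The biological coefficient of variation was 0.187 with 3 libraries a group.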
